A study of Homo sapiens with 12 samples.

Results

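The genes described here are 10 factors and markers of trophoblast, amnion and related early lineages, namely the AP-2 genes TFAP2A, TFAP2B and TFAP2C, the zinc finger genes GATA2 and GATA3, the homeobox genes CDX2, DLX3 and DLX5, the basic helix-loop-helix gene HAND1 and the keratin gene KRT23. They were taken by name, with earlier results of these data known, so that the counts of genes called below are descriptions. Each had 1 probe set annotated to it alone, so that 10 of 18404 named genes and 10 of 32321 probe sets are described. RNA was hybridised to Affymetrix Human Gene 1.0 ST arrays, single-colour arrays with probes along the transcript, and the deposited values are log2 signals. The 4 groups, each of 3 arrays labelled as biological replicates, were 2102Ep siSOX2, 2102Ep control, NTera-2 siSOX2 and NTera-2 control. The siSOX2 groups had received the SOX2 siRNA of the Ambion Silencer Select line, and the control groups its Negative Control #1, which has no target. 2102Ep and NTera-2 are embryonal carcinoma lines, the stem cells of teratocarcinoma, and 2102Ep is known as nullipotent because it resists retinoic acid, while NTera-2 is pluripotent. Passages were 35 to 50 for 2102Ep and 40 to 50 for NTera-2, and cells were kept for 72 hours after a transfection of 6 hours. The lines received different Lipofectamine products and different amounts of siRNA, so that line, reagent and siRNA amount cannot be told apart. Only 1 siRNA against SOX2 was used, so that loss of SOX2 and other effects of that siRNA cannot be told apart either.

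AP-2 proteins bind DNA as dimers and act in the surface ectoderm, neural crest and trophoblast, with TFAP2C also acting in germ cells. In human pluripotent cells TFAP2A, TFAP2C, GATA2 and GATA3 are known as early factors of the trophoblast and of the response to BMP, and HAND1 and CDX2 are genes of extraembryonic and posterior mesoderm cells as well as of the trophoblast. DLX3 is needed for the mouse placenta, DLX5 belongs to the same homeobox family and acts in the skeleton and branchial arches, and KRT23 encodes a type I keratin. Several of the proteins act in other tissues too, so that none of the 10 genes marks 1 cell type by itself.

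RefSeq promoters (assembly GRCh38.p14, 250 bases before to 50 after a transcription start) were found for 6 of the genes, with 13 starts in all. Those of HAND1, the gene with the largest change, and of CDX2 and 1 start of GATA2, which together hold AP-2 and GATA letters, are shown 5′ to 3′ on the strand of the gene. Capitals mark 4 motifs, each searched on both strands. The AP-2 motif was GCCNNNGGC, which reads the same on both strands. The letters searched for the GATA factors were AGATAA. Those searched for the SOX factors were CATTGT. Those searched for the TCF/LEF factors were CTTTGA.
HAND1 promoter, chr5:154478178-154478477, minus strand: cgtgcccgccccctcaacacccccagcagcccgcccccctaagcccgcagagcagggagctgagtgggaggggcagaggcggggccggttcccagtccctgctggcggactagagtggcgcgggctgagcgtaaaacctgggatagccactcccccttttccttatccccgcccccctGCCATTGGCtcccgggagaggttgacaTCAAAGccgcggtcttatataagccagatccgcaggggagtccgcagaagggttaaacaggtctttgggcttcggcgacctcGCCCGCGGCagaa
CDX2 promoter, chr13:27969266-27969565, minus strand: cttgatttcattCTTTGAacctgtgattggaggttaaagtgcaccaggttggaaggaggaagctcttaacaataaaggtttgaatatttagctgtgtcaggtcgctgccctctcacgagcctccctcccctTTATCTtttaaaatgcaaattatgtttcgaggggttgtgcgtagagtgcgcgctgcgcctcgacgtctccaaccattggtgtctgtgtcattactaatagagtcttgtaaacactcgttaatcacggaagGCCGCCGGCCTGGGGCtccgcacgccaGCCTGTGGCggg
GATA2 promoter, chr3:128488481-128488780, minus strand: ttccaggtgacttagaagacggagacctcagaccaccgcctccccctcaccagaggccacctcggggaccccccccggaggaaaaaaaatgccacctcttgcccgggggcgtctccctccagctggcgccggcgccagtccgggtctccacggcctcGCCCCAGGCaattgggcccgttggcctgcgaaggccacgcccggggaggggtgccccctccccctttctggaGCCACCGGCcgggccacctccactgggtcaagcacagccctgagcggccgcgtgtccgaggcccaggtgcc

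The AP-2 letters stood at -72 to -64 and at 38 to 46 in HAND1, counted from the start, where the first transcribed base is 1. In CDX2 they stood at 12 to 20, 19 to 27 and 39 to 47, the first 2 of which overlap, and the GATA letters stood at -119 to -114. The GATA2 start shown held the AP-2 letters at -93 to -85 and at -21 to -13. The AP-2 letters occurred in 7 of the 13 promoters, belonging to 4 of the 6 genes (GATA2, GATA3, HAND1 and CDX2), and in 23.2% of all 35116 promoters of the table. These letters are rich in G and C, and the 13 promoters held 43.0% (TFAP2B) to 74.7% (1 start of GATA3) of these bases, with a median of 58.7% over all promoters. The GATA letters occurred in 1 promoter (10.3% of all), the SOX letters in 1, a start of GATA3 (10.8% of all), and the TCF/LEF letters in 3 (12.9% of all). The promoters of TFAP2A and TFAP2B held none of the 4 motifs. A match is a stretch of letters and not a measured binding site.

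SOX2, the target of the siRNA, had log2 signals of 9.17, 9.30 and 8.80 in 2102Ep siSOX2, against 12.28, 12.21 and 12.20 in 2102Ep control. In NTera-2 the signals were 11.92, 11.95 and 11.86 in siSOX2 and 12.51, 12.52 and 12.63 in control. The arrays did not overlap in either line, and the change was -3.14 ± 0.117 (log2, SE) in 2102Ep and -0.64 ± 0.117 in NTera-2. These signals measure SOX2 RNA, and SOX2 protein was not analysed here. Array medians ran from 7.43 to 7.58 on the log2 scale. Over 13 pluripotency genes, listed as markers of embryonal carcinoma, the mean log2 signal per array was 10.43 to 10.55 in 2102Ep siSOX2, 11.03 to 11.27 in 2102Ep control, 10.24 to 10.47 in NTera-2 siSOX2 and 10.63 to 10.85 in NTera-2 control. Against 2102Ep control, NTera-2 control had log2 differences of -4.14 for ZFP42, -1.25 for UTF1 and 1.06 for PODXL. The list mean thus does not describe each gene. The values are bulk signals, so that more cells of a type and more RNA per cell cannot be told apart, and the file holds no detection calls, so that a low signal cannot be told apart from background.

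The first comparison asked how the 10 genes responded to siSOX2 in 2102Ep. HAND1, TFAP2A, GATA3, KRT23, DLX3, GATA2 and CDX2 rose, by 2.26-fold (CDX2) to 16.3-fold (HAND1). A gene was called where limma gave an adjusted p of 0.05 or less, an unadjusted p of 0.01 or less and a change reaching 2-fold in size. By this rule 7 of the 10 genes were called, 7 higher and 0 lower, where 1.15% of all genes were called higher and 1.98% in either direction. TFAP2B, TFAP2C and DLX5 were not called. The median log2 change of the 10 genes was 1.40, and that of all genes -0.01. Without the fold threshold 9 of the 10 passed the adjusted p, against 12.7% of all genes. Of these, DLX5 lay near the limit and did not pass under every alternative. The siSOX2 and control arrays were fully apart in 9 of the 10 genes (25.2% of all genes), with siSOX2 above control in 8 of them (12.6% of all genes).

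HAND1, a basic helix-loop-helix factor of extraembryonic mesoderm, heart and mouse trophoblast giant cells, had log2 signals of 11.90, 11.81 and 11.95 in 2102Ep siSOX2, against 7.91, 7.85 and 7.83 in 2102Ep control. All siSOX2 arrays lay far above all controls, and its log2 change of 4.03 (SE 0.0958, adjusted p = 1.65e-14, limma) was the fourth highest of all genes tested. It was also the largest of the 10 genes in both lines.

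The AP-2 genes did not move together. TFAP2A, the member best known from surface ectoderm and neural crest, had signals of 9.65, 9.56 and 9.67 in 2102Ep siSOX2, against 7.12, 7.23 and 7.22 in 2102Ep control, with a change of 2.44 ± 0.118 (log2, SE; adjusted p = 1.48e-10, limma). Its groups lay apart by more than 2 on the log2 scale. TFAP2C, the member known from trophoblast and primordial germ cells, had signals of 9.58, 9.82 and 9.46 in 2102Ep siSOX2, against 10.29, 10.34 and 10.12 in 2102Ep control. All 3 siSOX2 arrays were the lower ones, and the change of -0.63 ± 0.117 passed the adjusted p (0.00108, limma) but not the 2-fold threshold, since siSOX2 cells kept 0.646 of the control signal. TFAP2B, a gene of kidney, neural crest and neurons, had signals of 6.55, 6.52 and 6.44 in siSOX2 and 6.40, 6.45 and 6.53 in control. These overlapped, and the 95% interval of its log2 change ran from -0.18 to 0.27 (adjusted p = 0.887, limma).

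Of the zinc finger genes GATA3 changed more than GATA2. GATA3, a factor of trophectoderm and of T cells, had signals of 10.23, 10.16 and 10.31 in 2102Ep siSOX2, against 8.41, 7.79 and 8.07 in 2102Ep control. The groups did not overlap and the change was 2.15 ± 0.137 (log2, SE; adjusted p = 5.86e-09, limma), although the control arrays spread more (SD 0.315) than the siSOX2 arrays (SD 0.0731). GATA2, known from trophoblast and blood stem cells, had signals of 9.55, 9.34 and 9.28 in siSOX2 and 8.08, 7.92 and 8.16 in control. Every siSOX2 array lay above every control, with a change of 1.34 ± 0.109 (adjusted p = 1.37e-07).

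Among the homeobox genes CDX2 and DLX3 rose and DLX5 did not pass the 2-fold threshold. CDX2, a factor of trophectoderm, of posterior patterning and of the intestine, had signals of 8.94, 8.71 and 9.18 in 2102Ep siSOX2, against 7.59, 7.83 and 7.88 in 2102Ep control. The groups lay apart, but its change of 1.18 ± 0.128 (log2, SE; adjusted p = 4.74e-06, limma) was the lowest of the 7 called, with a 95% interval from 0.90 to 1.45. DLX3 had signals of 8.50, 8.68 and 8.56 in siSOX2 and 7.15, 7.14 and 7.04 in control, a change of 1.47 ± 0.107 (adjusted p = 3.11e-08). DLX5 had signals of 6.80, 6.83 and 6.67 in siSOX2 and 6.35, 6.44 and 6.32 in control. Its siSOX2 arrays were the higher ones, with a change of 0.40 ± 0.123 (adjusted p = 0.0403), which is 1.32-fold. This pass depended on the processing. The adjusted p of DLX5 (limma) was 0.0804 on median centring and 0.105 with all probe sets tested. Without 2102Ep siSOX2 replicate 2 it was 0.134.

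KRT23, the only structural gene among the 10, had signals of 7.42, 7.24 and 7.31 in 2102Ep siSOX2, against 5.75, 5.88 and 5.85 in 2102Ep control. The groups did not overlap, and the change was 1.49 ± 0.14 (log2, SE; adjusted p = 7.09e-07, limma). No array decided a call in 2102Ep: with any 1 of the 12 arrays left out, 7 of the 10 genes were called.

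**Figure D1:**
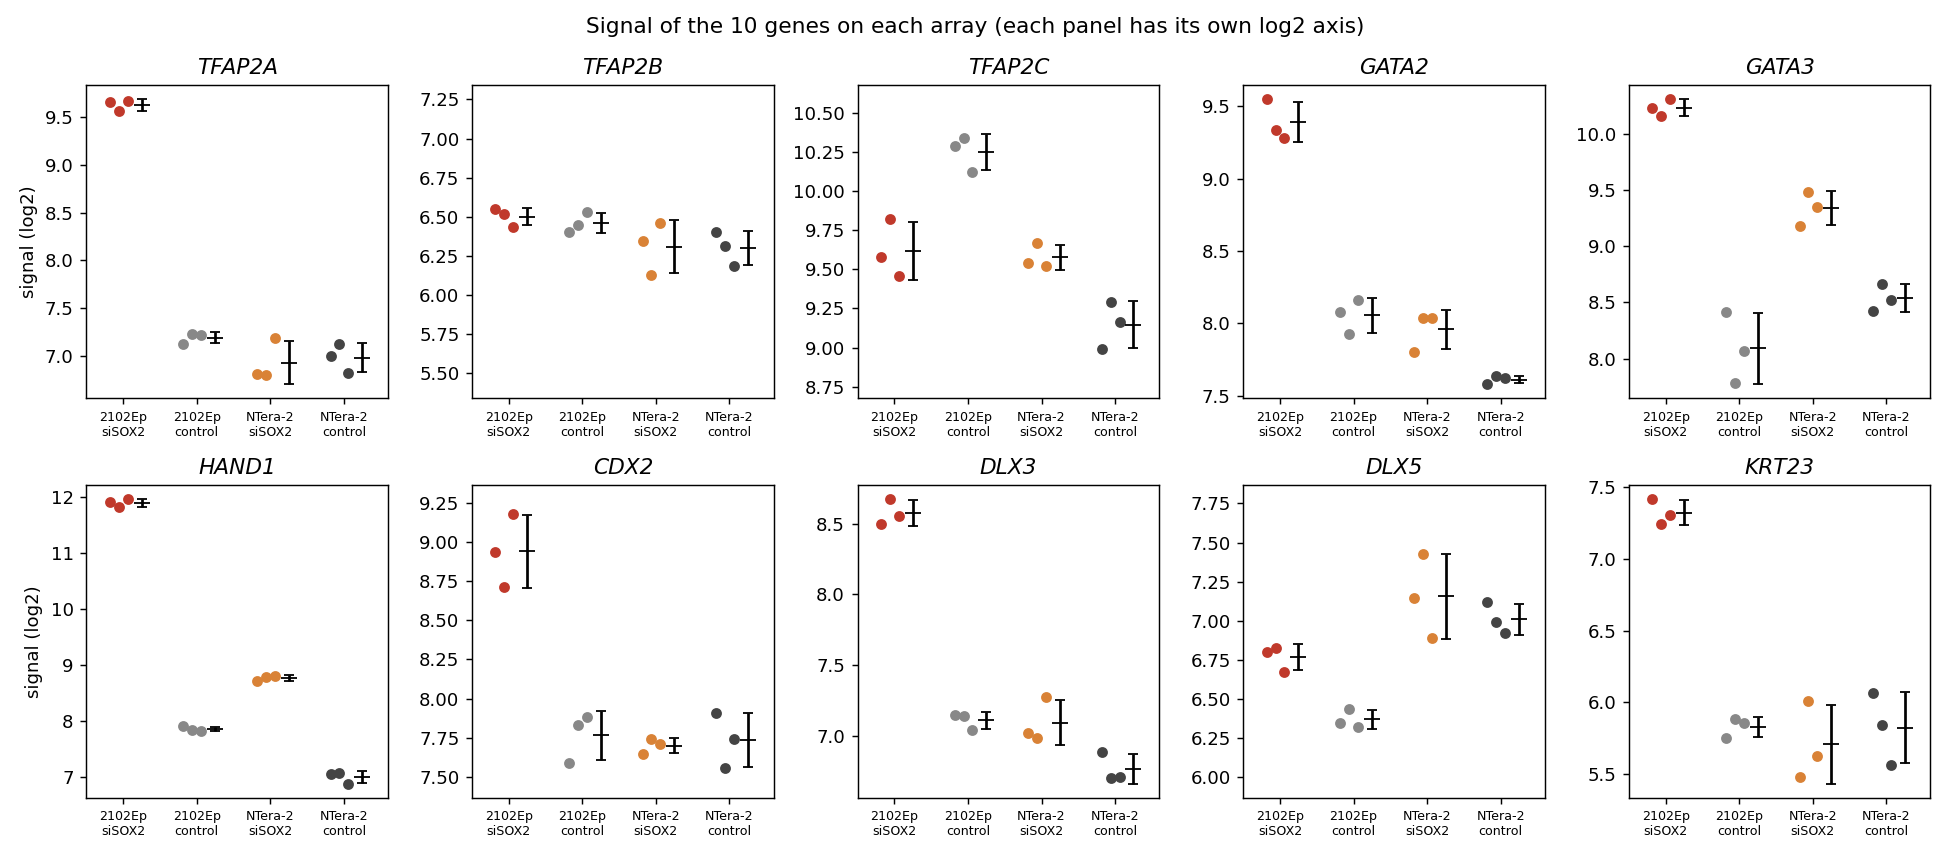
Signal (log2, vertical axis, a scale of its own in each panel) of the 10 genes on each of the 12 arrays (points) in the 4 groups, and black bars for the mean ± SD of each group. HAND1 lies at 11.81 to 11.95 in 2102Ep siSOX2, against 7.83 to 7.91 in 2102Ep control, while TFAP2B overlaps between siSOX2 and control in both lines.

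In NTera-2, the second comparison, the SOX2 signal itself passed the adjusted p (0.00225, limma) but not the 2-fold threshold. HAND1 was the only one of the 10 genes called, against 0.310% of all genes called higher, 0.348% lower and 0.657% in either direction. Its signals were 8.72, 8.78 and 8.81 in NTera-2 siSOX2, against 7.05, 7.08 and 6.89 in NTera-2 control. The groups lay apart, with a change of 1.76 ± 0.0958 (log2, SE; adjusted p = 7.45e-09, limma), a 3.40-fold rise. The median log2 change of the 10 genes was 0.24, and that of all genes 0.04.

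GATA3 and TFAP2C passed the adjusted p in NTera-2 without reaching 2-fold, so that 3 of the 10 genes passed it, against 4.94% of all genes. GATA3 had signals of 9.18, 9.48 and 9.35 in NTera-2 siSOX2, against 8.43, 8.67 and 8.52 in NTera-2 control, a log2 change of 0.80 ± 0.137 (adjusted p = 0.00148, limma). TFAP2C had signals of 9.54, 9.67 and 9.52 in siSOX2 and 8.99, 9.29 and 9.16 in control, a change of 0.43 ± 0.117 (adjusted p = 0.0423). In both genes every siSOX2 array lay above every control, so that TFAP2C had the opposite sign to 2102Ep.

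The other 7 genes did not pass the adjusted p in NTera-2. GATA2 had signals of 7.80, 8.04 and 8.04 in siSOX2 and 7.58, 7.63 and 7.62 in control, with a 95% interval of the log2 change from 0.12 to 0.58 (adjusted p = 0.0885, limma). DLX3 had signals of 7.02, 6.98 and 7.27 in siSOX2 and 6.88, 6.70 and 6.71 in control, with an interval from 0.10 to 0.55 (adjusted p = 0.104). The arrays of these 2 genes did not overlap either, which made 5 of the 10 genes with all siSOX2 arrays higher, against 14.2% of all genes (21.3% in either direction).

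TFAP2A, TFAP2B, CDX2, DLX5 and KRT23 overlapped between siSOX2 and control in NTera-2. TFAP2A had signals of 6.81, 6.80 and 7.19 in siSOX2 and 7, 7.13 and 6.82 in control, and its log2 change had an interval from -0.30 to 0.20 (adjusted p = 0.915, limma). CDX2 had signals of 7.64, 7.74 and 7.71 in siSOX2 and 7.91, 7.56 and 7.74 in control, with an interval from -0.31 to 0.24. KRT23 had signals of 5.48, 6.01 and 5.63 in siSOX2 and 6.06, 5.84 and 5.57 in control, with an interval from -0.41 to 0.18. In these 3 genes, called in 2102Ep, the upper bound of the change in signal in NTera-2 was at most 0.24, below the 2-fold threshold of 1. The NTera-2 signals of TFAP2A and KRT23 lay below the array medians (7.43 to 7.58). Small signals are compressed by the processing, so that these intervals do not bound the change in RNA. DLX5 had signals of 7.15, 7.43 and 6.89 in siSOX2 and 7.12, 6.99 and 6.92 in control (interval from -0.11 to 0.41), and TFAP2B had signals of 6.35, 6.13 and 6.46 in siSOX2 and 6.40, 6.32 and 6.19 in control (interval from -0.22 to 0.23).

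**Figure D2:**
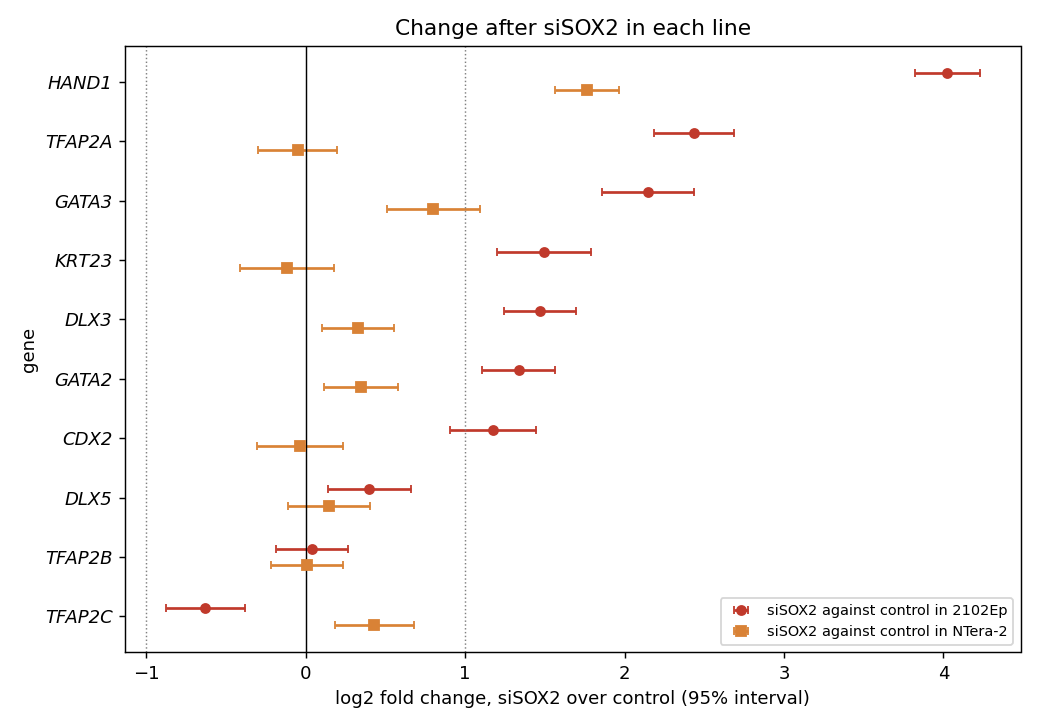
Log2 fold change of siSOX2 over control (horizontal axis) of each of the 10 genes (vertical axis) in 2102Ep (red circles) and NTera-2 (orange squares), with 95% intervals from limma and dotted lines at a 2-fold change. HAND1 is highest in both lines (4.03 and 1.76), and TFAP2C lies at -0.63 in 2102Ep and 0.43 in NTera-2.

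The third comparison tested whether the response differed between the lines, as the change in 2102Ep minus that in NTera-2. Of the 10 genes 7 were called, 6 with a higher response in 2102Ep and 1 with a lower one, against 1.66% of all genes called in either direction, 0.989% higher and 0.668% lower. Without the fold threshold 8 of the 10 passed, against 5.20% of all genes. TFAP2A had the widest difference (2.49 ± 0.167, log2, SE; adjusted p = 5.16e-08, limma), followed by HAND1 (2.26 ± 0.136; adjusted p = 2.05e-08) and KRT23 (1.61 ± 0.197; adjusted p = 5.65e-05). The difference was 1.35 for GATA3, 1.21 for CDX2 and 1.14 for DLX3. HAND1 thus rose in both lines and rose more in 2102Ep, whereas TFAP2A, KRT23 and CDX2 rose in 2102Ep with a signal in NTera-2 that did not pass the test. GATA2 passed the adjusted p (0.0006) with a difference of 0.99, just under 2-fold. It was over 2-fold with arrays centred on their median (1.03), with quantile normalization again (1.06) and without any 1 of 7 arrays, and leaving out each of the 12 arrays gave 0.91 to 1.04. TFAP2C differed in the other direction (-1.06 ± 0.165; adjusted p = 0.000613), which was just under 2-fold without 2102Ep siSOX2 replicate 3 (-0.98), without NTera-2 control replicate 1 (-0.98) and with quantile normalization again (-0.99). For DLX5 the 95% interval of the difference ran from -0.11 to 0.62, and for TFAP2B from -0.29 to 0.35.

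The fourth comparison set the lines against each other under the control siRNA, NTera-2 control against 2102Ep control. It uses the same control arrays as the knock-down comparisons, so its values are given beside theirs and not as a separate support. TFAP2C was the only gene of the 10 called, lower in NTera-2 by 1.10 on the log2 scale (SE 0.117; adjusted p = 8.44e-07, limma), where 7.76% of all genes were called, 4.49% higher and 3.28% lower. HAND1 was lower in NTera-2 too, at 0.552 of its 2102Ep level (adjusted p = 1.54e-06), and so were GATA2 (adjusted p = 0.00326) and DLX3 (adjusted p = 0.0153) at 0.736 and 0.788 of it. GATA3 was higher in NTera-2 (1.37-fold, adjusted p = 0.0139), as was DLX5 (1.56-fold, adjusted p = 0.00041), all under 2-fold. Without the fold threshold 6 of the 10 passed, against 42.4% of all genes. The arrays did not overlap in 7 of the 10 genes, against 50.5% of all genes, and NTera-2 was the higher line in 2 of them (23.7% of all genes).

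The order of the levels over the 4 groups differed by gene. TFAP2A, CDX2 and KRT23 were highest in 2102Ep siSOX2, and their other 3 groups did not differ between neighbours in the order (adjusted p = 0.174 or more for each step, limma). DLX3 and GATA2 were also highest in 2102Ep siSOX2, followed by 2102Ep control, NTera-2 siSOX2 and NTera-2 control, with no step below the first passing the test. In HAND1 and GATA3 every step passed. HAND1 ran from 2102Ep siSOX2 through NTera-2 siSOX2 and 2102Ep control to NTera-2 control, and GATA3 from 2102Ep siSOX2 through NTera-2 siSOX2 and NTera-2 control to 2102Ep control. In TFAP2C the siSOX2 groups were the middle ones, with mean signals of 9.62 in 2102Ep and 9.58 in NTera-2, between the controls at 10.25 in 2102Ep and 9.15 in NTera-2. The step between the siSOX2 groups did not pass (adjusted p = 0.804), and the other steps did. DLX5 was highest in NTera-2 siSOX2 and lowest in 2102Ep control, with only the lowest step passing. In TFAP2B no step passed.

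Across the 12 arrays GATA2 and DLX3 had the most similar patterns among the 10 genes (Pearson r = 0.978), followed by TFAP2A and DLX3 (r = 0.976) and HAND1 and DLX3 (r = 0.971). TFAP2C and DLX5 were the least similar (r = -0.7). These values are descriptions over arrays that share lines and siRNAs. Once the group means were taken out, r was lower in each of these pairs. It was -0.135 for GATA2 and DLX3, 0.479 for TFAP2A and DLX3 and 0.173 for HAND1 and DLX3. Over all pairs it then ran from -0.8 (TFAP2C and CDX2) to 0.675 (DLX5 and KRT23). With few arrays per group these values are loose and do not show whether genes varied together within groups.

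Outside the 10 genes the most similar patterns, by Pearson r over the 12 arrays among 2512 genes whose group means spanned at least 1 on the log2 scale, differed by gene. HAND1 was closest to MIXL1, a homeobox gene of the primitive streak (r = 0.993), LHX1 (r = 0.986) and the chemokine gene CXCL14 (r = 0.983). DLX3 was closest to CXCL14 (r = 0.993) and to the matrix gene FMOD (r = 0.991). GATA2 was closest to FMOD (r = 0.99) and to BMPER, which encodes a BMP-binding protein (r = 0.989). TFAP2A was closest to the scavenger receptor gene STAB2 (r = 0.994), to MSGN1, a regulator of presomitic mesoderm (r = 0.992), and to TNS4 (r = 0.991). STAB2 was also among the 3 closest genes of CDX2 (r = 0.977, after BTK and SLPI) and KRT23 (r = 0.978, after HOXB6 and before CYP24A1). GATA3 was closest to MINAR1 (r = 0.972), TGFB1 (r = 0.97) and SLC44A2 (r = 0.969), and TFAP2C to GCNT2 (r = 0.955), DEPTOR (r = 0.952) and DPF1 (r = 0.949). ZNF436 was the third for DLX3 (r = 0.99) and LHX1 for GATA2 (r = 0.988). These r values too are descriptions over arrays that share lines and siRNAs, and differences between groups can make them high. They do not compare sizes: in 2102Ep STAB2 had a log2 change of 1.08 and TFAP2A one of 2.44.

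The measured genes next to the 10 on the chromosome, chosen as neighbours after the values were seen, were not called in either line. Of all genes 1.98% were called in 2102Ep and 0.657% in NTera-2. At these shares few or no calls would fall among so few genes, so that their absence says nothing particular about neighbours. TFAP2A-AS1, beside TFAP2A, had a log2 change of 0.31 in 2102Ep (adjusted p = 0.0557, limma), and GATA3-AS1 had one of 0.24 (adjusted p = 0.287). OFCC1, on the other side of TFAP2A, was at 0.42 in 2102Ep (adjusted p = 0.0434), under 2-fold. DLX4, beside DLX3, was at 0.10 (adjusted p = 0.74) and DLX6, beside DLX5, at -0.06 (adjusted p = 0.862). BMP7, which lies next to TFAP2C and encodes a BMP ligand, was at 0.53 (adjusted p = 0.00272), and ITGA3, next to DLX3, at 0.57 (adjusted p = 0.00877), both under 2-fold.

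Relatives and partners of the 10 genes were read from lists. Of all genes 1.98% were called in 2102Ep and 0.657% in NTera-2, in either direction. Lists this short would hold few calls or none at these shares, so that a list without calls is near the background. Neither of the other AP-2 genes measured, TFAP2D (-0.25, adjusted p = 0.376) and TFAP2E (-0.02, adjusted p = 0.951), was called in 2102Ep (limma), nor in NTera-2. Of 7 AP-2 co-factors, CITED2, a transcriptional co-activator, had almost the same log2 change in both lines, 0.99 in 2102Ep (adjusted p = 5.64e-06), just under 2-fold, and 1.01 in NTera-2 (adjusted p = 1.63e-05), where it was called. CREBBP (0.23, adjusted p = 0.479) and KCTD15 (0.10, adjusted p = 0.67) were not called in 2102Ep. Of 9 other GATA genes and co-factors GATA6, a factor of primitive endoderm and amnion, was called in 2102Ep (1.28 ± 0.126, SE; adjusted p = 1.29e-06) and none in NTera-2, where GATA6 was at 0.49 (adjusted p = 0.0294). GATA4 was at 0.40 in 2102Ep (adjusted p = 0.0254) and LMO2, a bridging partner of GATA proteins in blood, at 0.40 (adjusted p = 0.0508). None of 11 other HAND, CDX and DLX genes and partners was called in either line. In 2102Ep CDX1 was at 0.61 (adjusted p = 0.00184) and TCF4 at 0.67 (adjusted p = 0.00283).

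Of 27 other trophoblast genes measured, 7 were called higher and 1 lower in 2102Ep, against 1.15% and 0.826% of all genes, with a median log2 change of 0.49. TBX3, a T-box factor, rose by 2.50 ± 0.112 (SE; adjusted p = 4.93e-11, limma), MSX2, a homeobox target of BMP, by 2.27, and VGLL1, a TEAD co-factor of trophoblast, by 2.08. EOMES, which acts in mouse trophoblast stem cells and in mesendoderm, rose by 2.06. KRT19, a keratin of simple epithelia, rose by 1.505, the iron exporter gene SLC40A1 by 1.33 and the peptidase gene ENPEP by 1.06. The fall was in ERVW-1, which encodes the fusion protein syncytin of the syncytiotrophoblast (-1.15 ± 0.133; adjusted p = 8.73e-06). KRT7 (0.84, adjusted p = 3.61e-05) and KRT8 (0.83, adjusted p = 1.1e-05) were under 2-fold. GCM1 (0.14), ELF5 (0.03), CGA (0.015), INSL4 (-0.15) and TEAD4 (-0.24) were not called either. In NTera-2 EOMES was the 1 gene of the list called (2.04, adjusted p = 2.25e-07), against 0.310% of all genes called higher. The median there was -0.01. KRT19 was at 0.98 (adjusted p = 2.16e-05) and MSX2 at 0.93 (adjusted p = 0.00222) there, just under 2-fold, whereas TBX3 was at 0.14 (adjusted p = 0.666) and VGLL1 at -0.01 (adjusted p = 0.989).

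Of 10 amnion genes measured 1 was called higher in 2102Ep, against 1.15% of all genes. It was BAMBI, which encodes a decoy receptor of BMP and Nodal signals (1.36 ± 0.106, SE; adjusted p = 6.75e-08, limma). CLDN10 was at 0.90 (adjusted p = 4.91e-05) and VTCN1, which encodes an immune checkpoint protein, at 0.70 (adjusted p = 0.000231). These had the smallest adjusted p of those not called. ISL1 was at 0.30 (adjusted p = 0.0567), IGFBP3 at -0.08 and MUC16 at -0.37. The median of the list was 0.49 in 2102Ep and 0.15 in NTera-2, where none was called, against 0.657% of all genes.

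BMP signals are known to induce many of the 10 genes in human pluripotent cells, and 21 genes of that pathway were measured. In 2102Ep 6 of them were called higher and 0 lower, against 1.15% and 0.826% of all genes, with a median of 0.44. The ligand genes BMP2 and BMP4 rose by 2.92 ± 0.123 (log2, SE; adjusted p = 2.21e-11, limma) and 1.16 ± 0.133 (adjusted p = 8.15e-06), and the target genes ID2, ID1 and ID3 by 1.83, 1.17 and 1.03. BMPER rose by 1.61. Of the same list MSX1 (0.74), ID4 (0.44), SMAD6 (0.43) and SMAD7 (0.13) were not called. The inhibitor gene NOG was at 0.65 (adjusted p = 0.00129), as was TWSG1 (0.65, adjusted p = 0.00101), both under 2-fold. In NTera-2 2 of the 21 were called higher, against 0.310% of all genes, with a median of 0.28. They were BMP2 (1.17 ± 0.123; adjusted p = 1.13e-05) and GREM1, which encodes a BMP antagonist (1.38 ± 0.136; adjusted p = 4.93e-06). GREM1 was at 0.15 in 2102Ep (adjusted p = 0.586). The part of BMP signals in the changes of the 10 genes was not tested.

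Markers of other cells were read beside these values. Of 13 pluripotency genes 4 were called lower and 0 higher in 2102Ep, against 0.826% and 1.15% of all genes. They were PRDM14 (-2.38), UTF1 (-1.28), CRIPTO (-1.16) and TERF1 (-1.02). In NTera-2 2 were called lower, PRDM14 (-1.499) and CRIPTO (-1.01), against 0.348% of all genes. DPPA4 was at -0.86 in 2102Ep and -0.50 in NTera-2, and L1TD1 at -0.44 and -0.79. Of 9 definitive endoderm markers 1 was called higher in 2102Ep, against 1.15% of all genes. It was the apolipoprotein gene APOA2 (2.56), while SOX17, a defining factor, was at 0.27 (adjusted p = 0.174, limma) and CXCR4 at 0.36 (adjusted p = 0.0498). The mean log2 signal of this list per array was 7.06 to 7.31 in 2102Ep siSOX2 and 6.84 to 6.91 in 2102Ep control. This mean includes APOA2, and the median log2 change of the list in 2102Ep was 0.02, against -0.01 for all genes. Of 10 fibroblast markers none was called, with PDGFRB at 0.87 and THY1 at -0.61 in 2102Ep, and the mean of the list per array was 7.045 to 7.135 in siSOX2 and 6.854 to 7.026 in control. In NTera-2 none of the 10 was called either, the mean of the list was 6.927 to 7.089 in siSOX2 and 6.717 to 6.871 in control, and the median log2 change of the list (0.26) was close to that of the 10 genes described here (0.24). In both lines the siSOX2 arrays thus lay above the control arrays in this list mean. Of 8 leukocyte markers none was called, and the mean of the list overlapped between siSOX2 (6.06 to 6.25) and control (6.10 to 6.18), with NKG7 at -0.44 and CD68 at 0.43. The part of these other cell types in the values of the 10 genes was not tested.

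**Figure D3:**
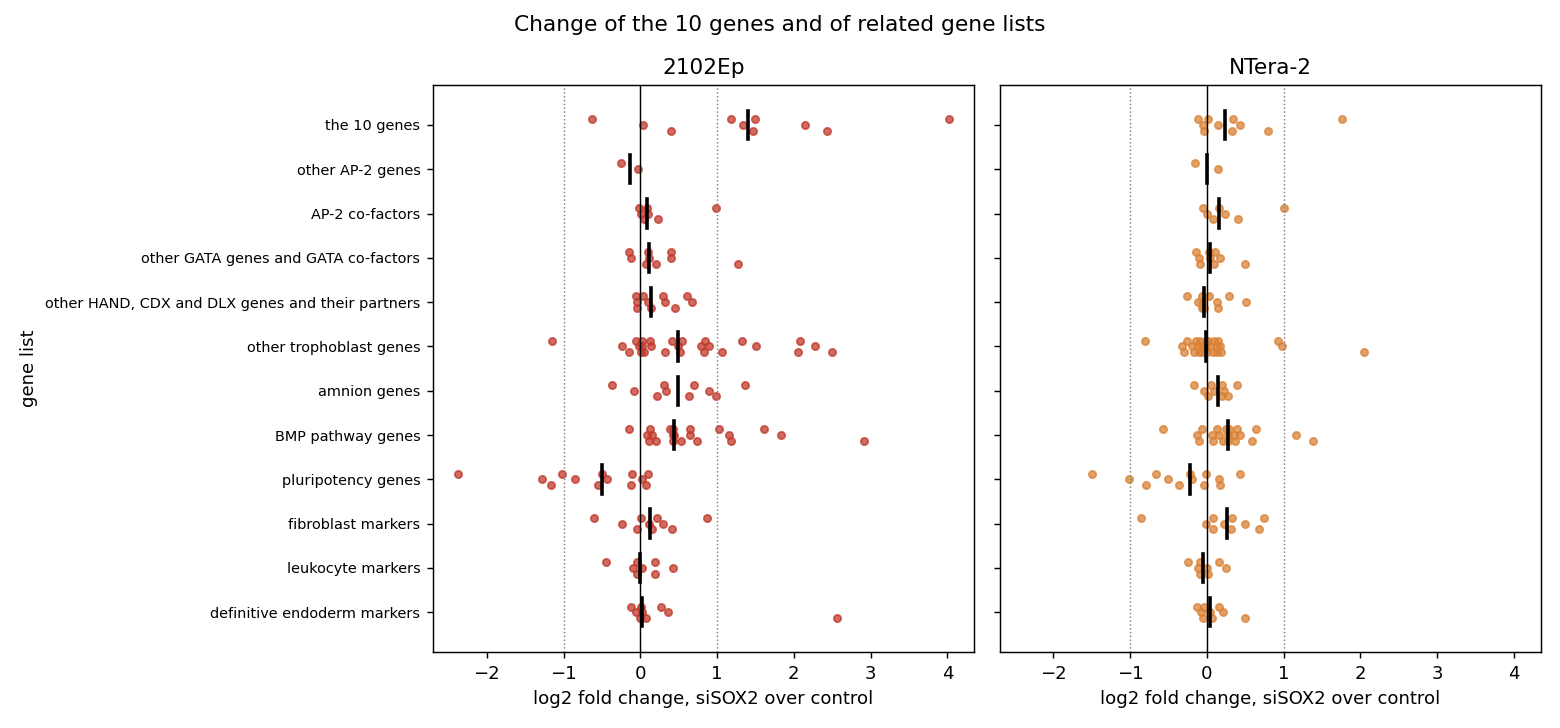
Log2 fold change of siSOX2 over control (horizontal axis) of the 10 genes and of each measured gene (points) of 11 related lists, one list to a row, with 2102Ep in the left panel, NTera-2 in the right panel, black bars for list medians and dotted lines at a 2-fold change. In 2102Ep the median of the 10 genes (1.40) is above that of the other trophoblast genes (0.49), and in NTera-2 these medians are 0.24 and -0.01.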

How the data were processed

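Log2 signals per probe set were deposited by the authors, who made them by robust multi-array averaging (a method of background correction, quantile normalization and summary per probe set) in the manufacturer's software. The software version was not given in the sources used here. No log base is stated, and values between 1.57 and 14.98 were read as log2. The tool limma is named, with no version, in the processing notes of the submitters. Robust multi-array averaging compresses small signals, which understates changes of dim genes. Of 32321 probe sets, 19158 had 1 gene in the platform annotation, and only these were named, through current RefSeq symbols where the gene matched (18376 of 18404). Where a gene had more than 1 probe set, that of highest mean signal was used. This did not touch the 10 genes, which had 1 each.

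All 12 arrays were fitted with a mean per group in limma 3.58.1 under R 4.3.3, and p-values were adjusted by Benjamini-Hochberg over all 18404 genes of a contrast. All adjusted p-values are limma's. A gene was called at an adjusted p of 0.05 or less, an unadjusted p of 0.01 or less and a log2 change of at least 1. The calling rule was first tried on simulated data, with noise drawn separately for each gene and array and planted changes above the threshold. Changes close to the threshold and effects shared by an array were not covered. For a single gene, an exact permutation test (two-sided) of 3 arrays against 3 reaches p = 0.1 at best, and the calls rest on a spread pooled across genes. No source says that replicates came from separate cultures beyond calling them biological, and the p-values measure the spread between these arrays. Precision is limited by the number of arrays.

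The 10 genes and the related lists were chosen with earlier results of these data known. Named are the 10 genes, SOX2, every gene of a related list called in either line, up to 2 further genes per list with the smallest adjusted p in 2102Ep, and the 3 most similar genes of each of the 10 whose group means spanned at least 1. Neighbours on the chromosome, and some genes of the related lists that this rule did not pick, were added after their values were seen. Of 141 listed genes 127 were measured by a probe set of 1 gene, and the others were not analysed here. Promoters are from RefSeq (GRCh38.p14). Promoters and figures were processed with Python 3.11.15, pandas 2.3.3 and matplotlib 3.10.9.

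Alternatives tried were a replicate block, a fit of the compared groups alone, centring on the array median, quantile normalization again, a filter on dim genes, all probe sets, the mean of the probe sets of a gene, another prior, no fold threshold and leaving out each array.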

Additional observations from a re-analysis of the deposited data

Results flagged for a closer look

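The responses of the lines differed by the test of the difference itself (the change in 2102Ep minus that in NTera-2, log2, limma) in 7 of the 10 genes. The difference was 2.488 for TFAP2A, 2.262 for HAND1, 1.61 for KRT23, 1.347 for GATA3, 1.211 for CDX2 and 1.14 for DLX3, all with a higher response in 2102Ep. It was -1.06 for TFAP2C, with opposite signs in the lines. The adjusted p of these genes ran from 2.05e-08 (HAND1) to 0.000613 (TFAP2C). SOX2 RNA itself differed by -2.49 in the same test, and reagent and siRNA amount differed with the line. SOX2 protein was not analysed here. Their part in these differences was not tested.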

How the results depend on the processing

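The 7 rises in 2102Ep and the rise of HAND1 in NTera-2 kept their direction and their call under every alternative that tested the gene. With genes below the median signal left out, TFAP2A, TFAP2B, DLX3, DLX5 and KRT23 were not tested, and 4 of the 10 genes were called in 2102Ep and 4 for the difference between the lines. With no fold threshold 3 of the 10 genes passed in NTera-2 and 6 between the control groups, against 4.94% and 42.4% of all genes. Of the 127 genes of the related lists 54 passed in 2102Ep and 24 in NTera-2, against 12.7% and 4.94% of all genes. With the threshold 21 and 6 of the 127 were called, against 1.98% and 0.657% of all genes. With 1 array left out the numbers called among the 10 genes were 7 in 2102Ep, 1 in NTera-2, 7 to 8 for the difference and 1 between the controls, and among the related lists 20 to 23 in 2102Ep and 4 to 6 in NTera-2.

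Values near 0 that were not called changed sign. On median centring and with quantile normalization again TFAP2B in NTera-2 was at -0.0504 and -0.0099, and KRT23 between the controls at 0.0042 and 0.0433. With 1 array left out, the ranges in NTera-2 were -0.1797 to 0.0206 (TFAP2A), -0.0659 to 0.09996 (TFAP2B), -0.1255 to 0.0487 (CDX2) and -0.2691 to 0.0017 (KRT23). For the difference between the lines TFAP2B ran from -0.0593 to 0.1066, and between the controls CDX2 ran from -0.1205 to 0.0581 and KRT23 from -0.1252 to 0.1227. The cause was not tested.

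The labels number the replicates 1 to 3 in each group. The r of the deviations from the group means was -0.377 to 0.268 over 18 pairs of arrays with the same number. It was -0.417 to 0.459 over 36 pairs of different number. With 3 arrays per group these pairs are not independent. The values therefore cannot show whether arrays of the same number shared a culture or a day, which the labels do not say. With the replicate block 7 of the 10 genes were called in 2102Ep, 1 in NTera-2, 7 for the difference and 1 between the controls.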
